A study of Mus musculus with 8 samples.

Results

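The kept transcripts are 136 genes whose mRNA was abundant in leptotene and zygotene (LZ) spermatocytes of wild-type (WT) mice. In WT pachytene and diplotene (PD) spermatocytes it was lower by at least 10-fold. In *Cnot4*-null PD spermatocytes these transcripts stood, by group mean, nearer to their *Cnot4*-null LZ level than to their WT PD level. They were chosen by a rule on group means of FPKM, sequenced fragments per unit of transcript length and of library size, over the 2 libraries of each group. The WT LZ mean had to be at least 20 and the WT PD mean at most 1/10 of it, which 727 of 23235 gene symbols met after symbols of microRNAs and small nucleolar RNAs were left out. For these genes the kept fraction f was computed as the *Cnot4*-null PD mean minus the WT PD mean, divided by the *Cnot4*-null LZ mean minus the WT PD mean, so that 0 stands for the WT PD level and 1 for the *Cnot4*-null LZ level. The 136 genes with f between 0.6 and 1.2 are described here, and a gene that met the condition on WT is called fallen, which names the rule and not a test. The rule used all 4 groups and all 8 libraries, so the levels of these genes in the 4 groups are given as a description, without a test.

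RNA was sequenced from sorted spermatocytes of male C57BL/6 mice at both stages and in both genotypes, with 2 libraries in each group. Per the study's methods, testes of 6-week-old males were dissociated and the cells were sorted by flow cytometry on their Hoechst and propidium iodide signal. The *Cnot4*-null cells came from *Cnot4* fl/fl males carrying *Stra8*-Cre, in which the *Stra8* promoter drives deletion of exon 2 in germ cells that are about to enter meiosis, and the controls are labelled WT. The methods describe Smart-Seq2 amplification of cDNA from sorted cells, whereas the labels describe Trizol extraction and a TruSeq library made from total RNA, and which of them was used is not known here. The study calls the duplicates biological replicates, and neither it nor the labels say what libraries with the same number share. *Cnot4* itself lies at chr6:34972066-35083737 of mm9. Its WT values were 36.0 and 34.9 FPKM at LZ and 76.6 and 73.1 at PD, and its *Cnot4*-null values 43.2 and 34.6 at LZ and 65.9 and 53.5 at PD. Both *Cnot4*-null PD values lay below both WT PD values, and at LZ the values of the genotypes overlapped. The files hold 1 value per gene and do not show whether exon 2 is missing, so these levels do not check the labels.

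CNOT4 is a RING-type E3 ubiquitin ligase that associates with CCR4-NOT, the complex whose deadenylases shorten the poly(A) tails of mRNA and thereby start its decay. Many transcripts of spermatogonia and early meiotic cells are removed while spermatocytes pass from zygotene into pachytene. At the same time the X and Y chromosomes are silenced as a pair in the sex body, and several housekeeping genes hand over to testis-specific copies on autosomes.

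Summed over the 136 genes, the WT level went from 11958 and 10556 FPKM at LZ to 565 and 428 at PD, and the *Cnot4*-null level from 11020 and 10654 to 7809 and 9459. The median gene stood at 37.9 and 34.4 FPKM in the LZ and 1.67 and 1.51 in the PD libraries of WT, against 34.8 and 34.9 and 21.9 and 31.8 in those of *Cnot4*-null. The WT PD libraries were thus the only ones in which these genes were low, and 2 of the 136 were listed at 0 in WT PD replicate 1 (*Naa10* and *Tcea3*). For all 136 genes both *Cnot4*-null PD values lay above both WT PD values. This follows closely from the rule, and nothing is read from it beside the 41.6% of all tested genes that limma, a linear model across all genes, called higher in *Cnot4*-null PD than in WT PD. Between the *Cnot4*-null stages 69 genes had both PD values below both LZ values, 4 had both above, and the rest overlapped. The range of f sets these counts, as with f between 0.2 and 0.6 it was 472 of 473 genes below and with f over 1.2 it was 15 of 23 above, so nothing is read from them. In bulk samples such as these, fewer cells that hold a transcript and less of it per cell cannot be told apart.

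**Figure D1:**
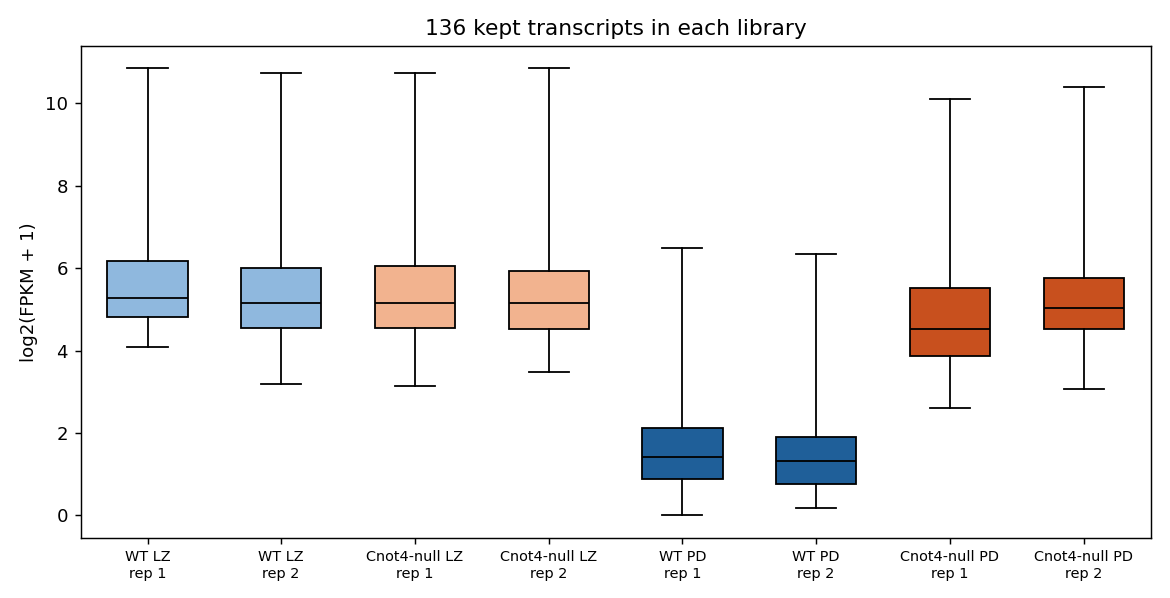
Level of the 136 kept transcripts in each of the 8 libraries, as log2(FPKM + 1). Boxes span the quartiles with the median as a line, whiskers reach the lowest and highest gene, and the WT PD libraries stand below the other 6.

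Among the 727 genes that met the condition on WT, the quartiles of f were 0.279, 0.402 and 0.568, so the kept genes form the upper end of a continuous distribution and no gap sets them apart. Below them, 473 genes had f between 0.2 and 0.6 (partly kept) and 94 had f of at most 0.2 (cleared in both genotypes). Above them, 23 genes had f over 1.2, and for 1 gene no f could be computed. Within the 136, f ran from 0.6001 to 1.19 with a median of 0.747. The WT mean fell by a median factor of 24.9 from LZ to PD in the kept genes, 26.4 in the partly kept and 44.2 in those cleared in both genotypes. The median ratio of *Cnot4*-null PD to *Cnot4*-null LZ was 0.764, 0.402 and 0.178 in the same order. Against WT PD, the median ratio of *Cnot4*-null PD was 18.285, 9.9952 and 7.4677. Both *Cnot4*-null PD values lay above both WT PD values in all 136 kept, 472 of 473 partly kept and 91 of 94 cleared genes. An excess over WT PD, as deposited, was thus not particular to the kept genes. Cleared in both genotypes names the limit on f and not the WT PD level.

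**Figure D2:**
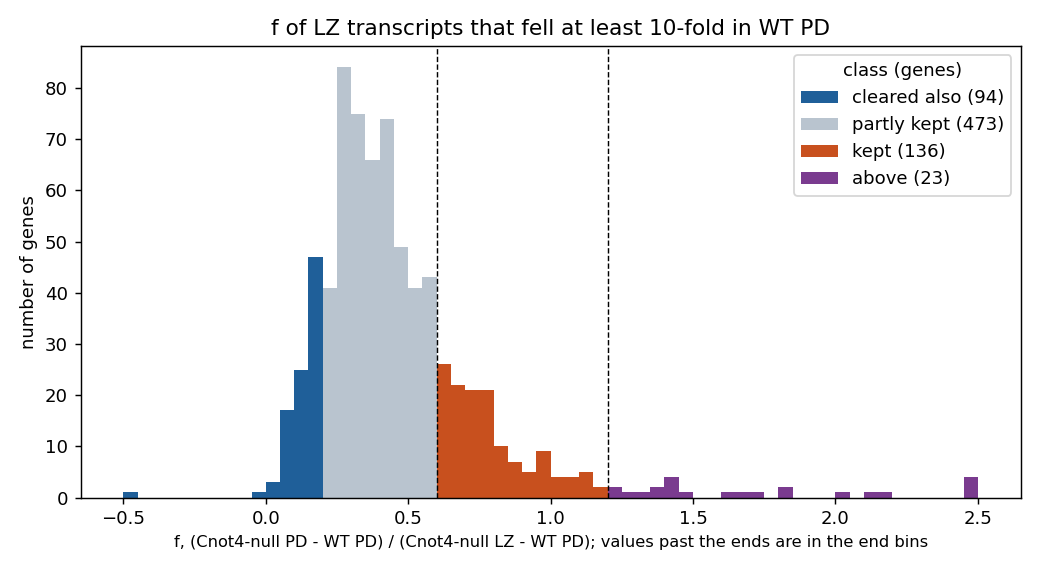
Number of genes by kept fraction f (bins of 0.05) among transcripts with a WT LZ mean of at least 20 that were lower by at least 10-fold in WT PD, coloured by class. Dashed lines mark 0.6 and 1.2, between which the 136 kept transcripts lie on the falling side of a single peak.

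The number of genes that the rule selects depends on the libraries and on their scaling. Without *Cnot4*-null PD replicate 2 the rule gave 83 genes, 64 of them among the 136, and without replicate 1 of that group it gave 188, with 111 shared. Quantile normalization gave 56 genes with 52 shared, and rescaling every library to the same median gave 21 with 11 shared. These scalings moved the median log2 difference of all genes between *Cnot4*-null PD and WT PD from 0.66 to -0.11 and -0.21, on the log2(FPKM + 1) scale. The difference at PD had a median over the 136 genes of 3.38 as deposited, 2.53 with quantile normalization and 2.35 with the same median. It stayed above 0 in each gene, and nothing is read from this, since the rule chose genes far above WT PD. The median f of the 136 was 0.747, 0.651 and 0.452, so the level relative to LZ depends on the scaling between libraries. The genes that met the rule in each replicate alone and under both scalings were *Psme2*, *Psme1*, *Ndufb11* and *Acadm*.

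All 136 passed the filter for low values (FPKM above 1 in at least 1 library), as 15899 genes did. In the limma model over these genes, 41.6% were called higher and 11.5% lower in *Cnot4*-null PD than in WT PD. The balance turned with the scaling, to 2855 higher and 4070 lower with quantile normalization and 3724 and 6376 with the same median. These all-gene figures are the background of every list count given below. As deposited, all 136 kept genes were among those called higher. The rule compared the same groups, so nothing is read from this count. At LZ, limma called 0.0692% of the tested genes higher and 0.0252% lower in *Cnot4*-null, and 0 of the 136 in either direction. With an unadjusted p under 0.05 at LZ, 2 of the 136 were higher and 7 lower, against 436 and 577 of all tested genes. The rule used the LZ values of both genotypes too, so nothing is read from the LZ counts of the 136.

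The transcript with the highest WT LZ mean was *Sod1*, which encodes the cytosolic copper-zinc superoxide dismutase and lies at chr16:90220987-90226567 of mm9. It went from 1850.2 and 1708 FPKM at LZ to 88.8 and 80.3 at PD in WT and from 1724 and 1845 to 1104 and 1360.4 in *Cnot4*-null. The *Cnot4*-null PD values did not overlap with those of any other group, standing far above WT PD and below both LZ groups (f 0.675). *Ftl1*, the light chain of the iron store ferritin, measured 676 and 619.9 FPKM at LZ and 29.9 and 18.5 at PD in WT, against 724 and 673 at LZ and 773 and 859 at PD in *Cnot4*-null. Here the *Cnot4*-null PD libraries were the highest of the 8 (f 1.17). *Ftl1*, *Rpl10*, *Psme2* and *H2-D1* have close copies elsewhere in the mouse genome, so their values are uncertain where reads fit more than 1 copy.

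*Rpl10* encodes a protein of the large ribosomal subunit and lies on the X chromosome at chrX:71516151-71518474 of mm9. It had WT values of 849 and 746 FPKM at LZ and 25.4 and 15.5 at PD, and *Cnot4*-null values of 1019 and 796 at LZ and 511 and 736 at PD. The autosomal retrocopy *Rpl10l*, which is known to stand in for *Rpl10* in meiosis and was looked up after the values of *Rpl10* were seen, went from 94.2 and 115 FPKM at LZ to 494 and 507 at PD in WT and from 119 and 111 to 473 and 263 in *Cnot4*-null. In WT PD the retrocopy was high and *Rpl10* low in both libraries, and in *Cnot4*-null PD both genes were above 250 FPKM in both libraries. The range of *Rpl10l* in *Cnot4*-null PD was wide, with replicate 2 well below replicate 1.

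*Cox8a*, a subunit of cytochrome c oxidase, measured 693 and 599 FPKM at LZ and 48.1 and 33.7 at PD in WT, against 522 and 549 at LZ and 515 and 519.9 at PD in *Cnot4*-null. The *Cnot4*-null PD values lay just below the *Cnot4*-null LZ values and differed little from each other. *Uchl1*, a deubiquitinating enzyme that marks spermatogonia, had WT values of 411 and 422 FPKM at LZ and 10.9 and 6.22 at PD, and *Cnot4*-null values of 250.2 and 355 at LZ and 202 and 232 at PD. It was lower in each *Cnot4*-null library than in WT LZ, and its PD values stood below both *Cnot4*-null LZ values. *Grcc10* went from 289 and 289 FPKM at LZ to 22.2 and 16.2 at PD in WT and from 176 and 186 to 211 and 194 in *Cnot4*-null. Its *Cnot4*-null values at PD were above those at LZ, and all 4 lay between the WT groups.

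*Psme1* and *Psme2* encode the α and β subunits of PA28, a ring that caps the 20S proteasome and is induced by interferon. They are neighbours on chromosome 14 and lie on opposite strands, at chr14:56196960-56200366 and chr14:56206278-56209950 of mm9. *Psme1* measured 173 and 152 FPKM at LZ and 4.31 and 2.12 at PD in WT, against 135 and 129.5 at LZ and 126 and 134 at PD in *Cnot4*-null. *Psme2* had WT values of 202 and 216 FPKM at LZ and 15.8 and 3.11 at PD, and *Cnot4*-null values of 185 and 198 at LZ and 202 and 178 at PD. For both genes the PD and LZ values of *Cnot4*-null overlapped, and f was 0.987 and 0.993. The 3 inducible catalytic subunits were looked up after this was seen. *Psmb8* went from 0.305 and 0 FPKM at LZ to 0 and 0.115 at PD in WT and from 1.31 and 0 to 6.24 and 9.83 in *Cnot4*-null. It was thus high only in *Cnot4*-null PD, and the values of *Psmb9* were 0.517 and 0.244 FPKM (WT LZ), 0 and 0 (WT PD), 0.276 and 2.2 (*Cnot4*-null LZ) and 7.22 and 7.53 (*Cnot4*-null PD). *Psmb10*, with a WT LZ mean below 20, was lowest in WT PD as the kept genes were, at 23.1 and 11.04 FPKM (WT LZ), 3.60 and 1.98 (WT PD), 19.7 and 13.5 (*Cnot4*-null LZ) and 21.2 and 25.5 (*Cnot4*-null PD).

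Of the other 4 transcripts among the 12 with the highest WT LZ means, 3 are X-linked. *Rbm3*, an RNA-binding protein induced by cold, measured 257 and 279 FPKM at LZ and 8.89 and 4.67 at PD in WT, against 207 and 225 at LZ and 121 and 159.5 at PD in *Cnot4*-null. *Pin4*, a parvulin-type prolyl isomerase, was at 306 and 238 FPKM (WT LZ), 14.2 and 5.19 (WT PD), 472 and 356 (*Cnot4*-null LZ) and 341 and 234 (*Cnot4*-null PD). *Rbbp7*, a histone-binding subunit of several chromatin complexes, was at 156 and 154 FPKM (WT LZ), 7.49 and 1.65 (WT PD), 151 and 131 (*Cnot4*-null LZ) and 132 and 179 (*Cnot4*-null PD). The *Cnot4*-null PD values of *Rbm3* and *Pin4* were all below both *Cnot4*-null LZ values, while those of *Rbbp7* overlapped with them. *Marcksl1*, a regulator of the actin cytoskeleton at the membrane, was at 211 and 157 FPKM (WT LZ), 17.1 and 13.9 (WT PD), 153 and 163 (*Cnot4*-null LZ) and 93.7 and 137 (*Cnot4*-null PD), with its PD values in *Cnot4*-null below those at LZ.

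**Figure D3:**
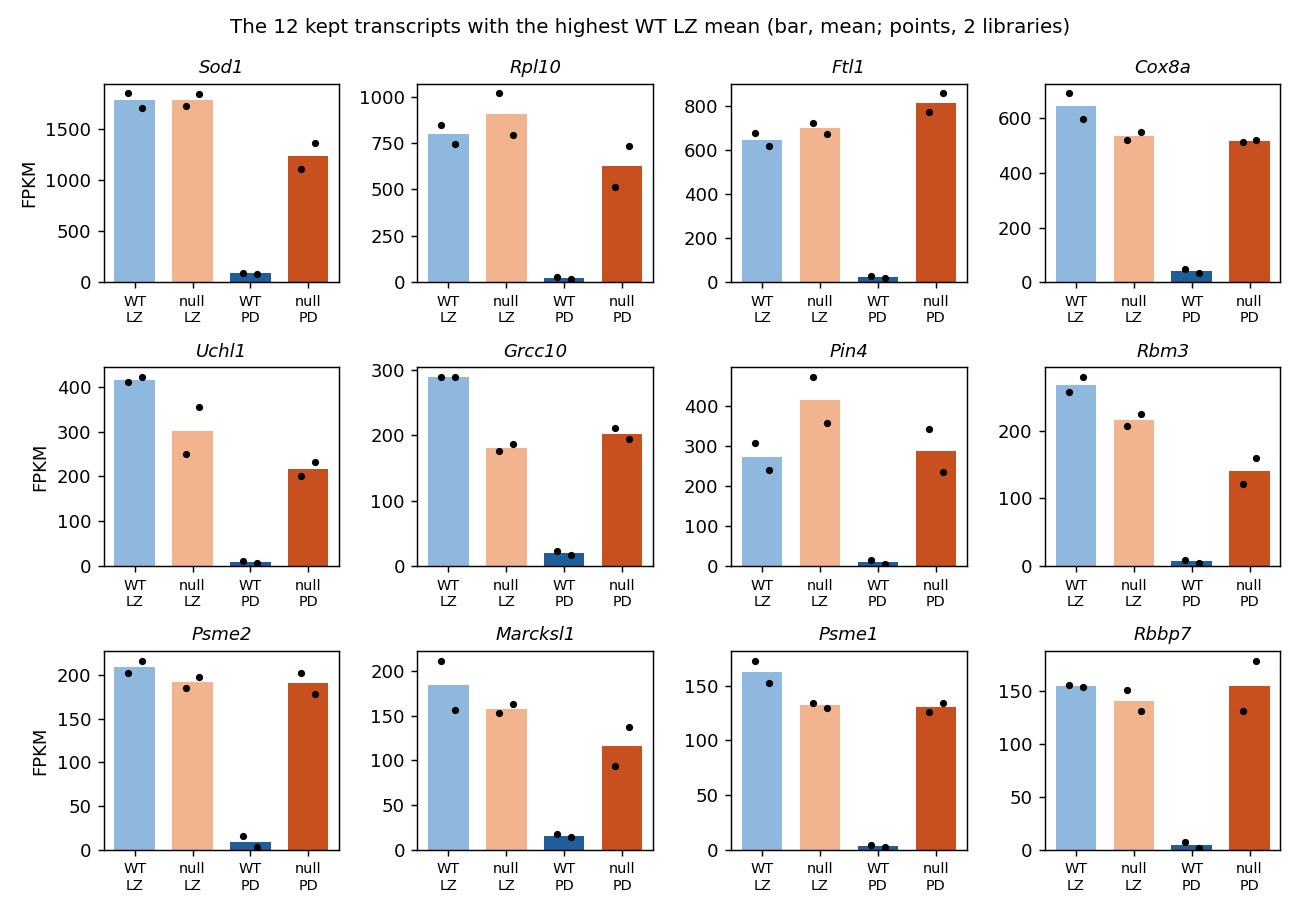
FPKM of the 12 kept transcripts with the highest WT LZ mean, 1 panel per gene with its own axis from 0. Bars are group means and points the 2 libraries, and in each panel the WT PD bar is the lowest of the 4.

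Of the 16 spermatogonial markers measured, 5 met the condition on WT and 3 were kept. Of all 727 genes that met the condition 136 were kept, and no test of the difference was made. *Kit*, the receptor of stem cell factor in differentiating spermatogonia, had WT values of 45.9 and 35.7 FPKM at LZ and 0.826 and 0.497 at PD, and *Cnot4*-null values of 33.1 and 41.2 at LZ and 13.7 and 39.7 at PD. Its f was 0.359 from *Cnot4*-null PD replicate 1 and 1.07 from replicate 2, so replicate 2 alone puts it in the range. *Sohlh1*, a transcription factor of differentiating spermatogonia, was at 73.0 and 64.9 FPKM (WT LZ), 1.42 and 0.542 (WT PD), 48.8 and 67.8 (*Cnot4*-null LZ) and 41.3 and 51.3 (*Cnot4*-null PD), with f within the range in both libraries. The other kept marker is *Uchl1*. Among all tested genes limma called 41.6% higher and 11.5% lower at PD. Of the 13 markers that were not kept, it called 11 higher and 0 lower (11 and 0 at an unadjusted p under 0.05), and quantile normalization left 7 higher. Their median log2 difference at PD was 2.76, against 0.66 over all genes, and the summed level of all 16 was 787 and 739 FPKM in WT LZ, 72.1 and 85.3 in WT PD, 552 and 727 in *Cnot4*-null LZ and 423 and 544 in *Cnot4*-null PD. *Uchl1* was the most abundant of them except in WT PD.

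The classical markers of the LZ stage were not among the kept genes, with 0 of 14. Of the 14, 4 met the condition on WT, and of all 727 genes that met it 136 were kept. Nothing is therefore read from the count of 0. *Dmc1*, the meiotic recombinase, went from 75.7 and 91.5 FPKM at LZ to 1.16 and 0.590 at PD in WT and from 132 and 81.8 to 8.58 and 9.22 in *Cnot4*-null (f 0.0756). *Prdm9*, which sets the places of recombination, had an f of 0.0899. *Stra8* and *2410076I21Rik* (also named *Rec114*), which act at meiotic entry and in break formation, had f of 0.379 and 0.364, and these 4 were chosen after their values were seen. These 4 are the genes of this list that met the condition on WT, and the others that were lower by at least 10-fold were below its minimum of 20 FPKM in WT LZ. Limma called 41.6% of all tested genes higher and 11.5% lower at PD. All-gene calls were 2855 higher and 4070 lower with quantile normalization, and 3724 and 6376 with the same median. Of the 14 markers it called 7 higher and 2 lower, against 3 and 3 with quantile normalization and 5 and 6 with the same median. Beside the all-gene shares, nothing is read from these calls of the 14 markers. The summed level of these markers was 1013 and 1044 FPKM in WT LZ, 467 and 498 in WT PD, 1659 and 1053 in *Cnot4*-null LZ and 603 and 399.7 in *Cnot4*-null PD, with *Hormad1* the most abundant in WT PD and *Stra8* in the other groups.

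Markers of other cells moved with the *Cnot4*-null PD libraries, and their part in the values of the kept transcripts was not tested. The cells had been sorted on Hoechst and propidium iodide signal. The study reports a check of the identity and purity of the sorted germ cells by SYCP3 and pH2AX staining. The calls stand beside 41.6% higher and 11.5% lower of all tested genes. All 8 Leydig cell markers were called higher by limma in *Cnot4*-null PD than in WT PD, also with both other scalings. Their summed level was 10082 and 22306 FPKM in *Cnot4*-null PD, against 116 and 7.07 in the WT PD libraries (replicate 1 the higher), 17.2 and 9.89 at LZ in WT and 10.8 and 19.02 at LZ in *Cnot4*-null. In *Cnot4*-null PD nearly all of it was *Insl3*, the insulin-like hormone of Leydig cells, which reached 9669 and 21608 FPKM. The level of *Insl3* in replicate 2 was over 2 times that in replicate 1, and the steroidogenic enzyme *Cyp17a1* stood at 168 and 278 FPKM there (chosen after its values were seen). All 6 markers of peritubular myoid cells were called higher (5 with the same median), with a summed level of 101 and 321 FPKM in *Cnot4*-null PD, 8.85 and 5.35 in WT PD, 7.17 and 15.5 in WT LZ and 7.24 and 2.94 in *Cnot4*-null LZ. *Acta2* was the most abundant of them in *Cnot4*-null PD, with 42.8 and 209 FPKM. Both of these sums were higher in *Cnot4*-null PD replicate 2 than in replicate 1.

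Of all tested genes limma called 41.6% higher and 11.5% lower in *Cnot4*-null PD. The all-gene counts were 2855 higher and 4070 lower with quantile normalization, and 3724 and 6376 with the same median. Of 13 Sertoli cell markers tested, 7 were called higher and 1 lower, but 1 and 1 with quantile normalization and 3 and 3 with the same median. Nothing is read from these counts of Sertoli cell markers. The sum over the 15 that were measured was 161 and 265 FPKM in *Cnot4*-null PD, 36.8 and 93.2 in WT PD, 259 and 236 in WT LZ and 45.3 and 43.6 in *Cnot4*-null LZ. It was highest in WT LZ and *Cnot4*-null PD. In *Cnot4*-null PD most of it was *Clu*, at 94.6 and 196 FPKM there against 8.06 and 15.3 in WT PD. *Cst9* and *Cst12*, picked like *Dhh* after their values were seen, overlapped between the PD groups. *Dhh* was lower in *Cnot4*-null PD, at 0.574 and 0.524 FPKM against 2.55 and 2.39 in WT PD. *Fshr*, the receptor of follicle-stimulating hormone, was listed at 0 in all libraries but *Cnot4*-null LZ replicate 1. Macrophage markers were called higher for 5 of 9 tested, against 41.6% of all tested genes, and nothing is read from this count. At an unadjusted limma p under 0.05, 8 were higher, and with quantile normalization no call was left. The sum of the macrophage markers was 34.0 and 143 FPKM in *Cnot4*-null PD and 3.57 and 3.37 in WT PD. It was 43.1 and 1.40 in WT LZ and 16.1 and 5.27 in *Cnot4*-null LZ, and *Lyz2* was the most abundant in *Cnot4*-null PD. Of 3 endothelial markers tested 2 were higher (1 with quantile normalization), with a sum of 17.7 and 30.1 FPKM in *Cnot4*-null PD and at most 1.30 in the other libraries, and *Cd34* made up most of it in *Cnot4*-null PD. The globins *Hbb-b1*, *Hbb-b2*, *Hba-a1* and *Hba-a2* were listed at 0 in all 8 libraries, which leaves *Alas2* as the only erythroid gene with any value.

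Markers of later germ cells also stood out, and where their mRNA came from was not tested. The cells had been sorted on Hoechst signal, and the study reports arrest of *Cnot4*-null spermatogenesis in metaphase I. Of all tested genes 41.6% were called higher and 11.5% lower at PD. All 10 spermatid markers were called higher in *Cnot4*-null PD (9 with quantile normalization and 8 with the same median), with a sum of 15937 and 7247 FPKM there, 432 and 267 in WT PD, 1839.5 and 1533 in WT LZ and 4045 and 717 in *Cnot4*-null LZ. *Prm1*, which encodes a protamine, led this list with 7592 and 2949 FPKM in *Cnot4*-null PD. Replicate 1 was the higher library here, the reverse of the order seen for the somatic markers. Of the 14 markers of the PD stage itself, 6 were called lower and 0 higher in *Cnot4*-null PD (9 and 0 at an unadjusted p under 0.05), and with the same median 14 were lower. Their sum was 13761 and 12839 FPKM in WT PD, 6389.9 and 2306 in *Cnot4*-null PD, 353 and 486 in WT LZ and 381 and 216 in *Cnot4*-null LZ, and most of it at PD was *Ldhc*, the lactate dehydrogenase of meiotic and later germ cells. The PD stage was thus marked in the *Cnot4*-null PD libraries, at a lower level than in WT and lower in replicate 2 than in replicate 1.

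By role, several groups recur among the kept transcripts. The genes named in this and the following 5 paragraphs beyond those on the lists were chosen after their values were seen, so the groups describe what the 136 contain and nothing is claimed of how often such genes occur elsewhere. The first group is the lysosome, with the proteases *Ctsd*, *Ctsf* and *Lgmn*, the protease inhibitor *Cstb*, the sphingolipid activator precursor *Psap*, progranulin (*Grn*), the membrane protein *Lamp2* and *Litaf*. *Ctsd* measured 151 and 96.5 FPKM at LZ and 1.98 and 0.938 at PD in WT, against 115 and 97.5 at LZ and 50.3 and 90.4 at PD in *Cnot4*-null. *Psap* was at 47.0 and 42.5 FPKM (WT LZ), 1.68 and 1.49 (WT PD), 40.6 and 40.1 (*Cnot4*-null LZ) and 23.5 and 58.4 (*Cnot4*-null PD), and *Ctsf* at 37.9 and 23.9 FPKM (WT LZ), 1.52 and 2.72 (WT PD), 17.8 and 20.1 (*Cnot4*-null LZ) and 9.72 and 28.0 (*Cnot4*-null PD). In all 3 the *Cnot4*-null PD libraries differed by more than 1.5 times, with replicate 2 the higher. *Cstb* did not share this spread, at 115 and 119.7 FPKM in *Cnot4*-null PD and 155 and 144 in *Cnot4*-null LZ, while WT PD held 15.1 and 5.89 and WT LZ 140.3 and 92.4. The transcription factors *Tfeb* and *Tfe3*, known to drive lysosomal genes, were below the minimum of 20 FPKM in every library. *Tfe3* was at 4.88 and 5.61 FPKM (WT LZ), 0.0864 and 0 (WT PD), 3.53 and 7.59 (*Cnot4*-null LZ) and 2.62 and 4.59 (*Cnot4*-null PD), and was thus lowest in WT PD.

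Another group handles oxidants. Beside *Sod1* and *Ftl1* it holds glutathione reductase (*Gsr*), thioredoxin (*Txn1*), catalase (*Cat*) and the transcription factors *Nfe2l2* and *Mafg*, which form a dimer on antioxidant response elements. *Gsr* had WT values of 140.3 and 115 FPKM at LZ and 2.49 and 1.57 at PD, and *Cnot4*-null values of 97.5 and 96.9 at LZ and 63.0 and 79.0 at PD. *Txn1* was at 110.01 and 119 FPKM (WT LZ), 1.97 and 1.25 (WT PD), 109.99 and 118 (*Cnot4*-null LZ) and 62.5 and 99.96 (*Cnot4*-null PD). *Nfe2l2* itself was at 26.4 and 25.7 FPKM (WT LZ), 0.339 and 0.311 (WT PD), 19.9 and 19.101 (*Cnot4*-null LZ) and 16.4 and 13.5 (*Cnot4*-null PD). In *Gsr*, *Txn1* and *Nfe2l2*, as in *Sod1*, the *Cnot4*-null PD values were far above WT PD and below both *Cnot4*-null LZ values. In *Ftl1* they were above both *Cnot4*-null LZ values, and in *Cat* and *Mafg* they overlapped with them. *Txn1* was 1 of the genes whose 2 *Cnot4*-null PD libraries lay far apart. *Keap1*, the adaptor that targets the *Nfe2l2* product for degradation, went the other way in WT, from 6.33 and 6.24 FPKM at LZ to 13.4 and 12.2 at PD, and stood at 12.9 and 14.7 in *Cnot4*-null PD.

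A further group is mitochondrial. *Cox8a*, *Cox7b* and *Ndufb11* belong to the respiratory chain, *Etfb* and *Acadm* to fatty acid oxidation, and *Glud1*, *Hsd17b10*, *Shmt2*, *Aifm1* and *Phb* to other mitochondrial functions. *Ndufb11* went from 62.3 and 39.9 FPKM at LZ to 4.34 and 0.542 at PD in WT and from 67.2 and 65.5 to 74.8 and 76.0 in *Cnot4*-null. *Cox7b* was at 70.7 and 66.3 FPKM (WT LZ), 3.21 and 1.18 (WT PD), 68.7 and 80.3 (*Cnot4*-null LZ) and 71.6 and 97.2 (*Cnot4*-null PD). *Acadm*, the medium-chain acyl-CoA dehydrogenase, was at 31.2 and 36.1 FPKM (WT LZ), 0.858 and 0.929 (WT PD), 27.4 and 30.7 (*Cnot4*-null LZ) and 20.2 and 36.0 (*Cnot4*-null PD). *Ndufb11* reached its highest values in the *Cnot4*-null PD libraries, whereas the PD and LZ values of *Cox7b* and *Acadm* in *Cnot4*-null overlapped. *Etfb*, at 97.0 and 101 FPKM in *Cnot4*-null PD against 2.93 and 2.496 in WT PD, was below its *Cnot4*-null LZ level of 111 and 102.

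Smaller groups concern RNA, chromatin, the cytoskeleton and the cell surface. *Parn*, a poly(A)-specific ribonuclease outside the CCR4-NOT complex, measured 23.1 and 22.6 FPKM at LZ and 0.854 and 1.09 at PD in WT, against 19.7 and 21.2 at LZ and 16.8 and 14.2 at PD in *Cnot4*-null. *Rad21*, the cohesin subunit of mitotic cells, was at 98.9 and 89.9 FPKM (WT LZ), 5.87 and 5.42 (WT PD), 78.1 and 98.0 (*Cnot4*-null LZ) and 45.4 and 66.4 (*Cnot4*-null PD). In both genes the *Cnot4*-null PD values lay between WT PD and all LZ values. Chromatin regulators among the 136 include *Rbbp7*, *Smarcc1*, *Crebbp*, *Cecr2*, *Usp22*, *Morf4l2* and *Ubtf*, and regulators of actin include *Arpc3*, *Arpc5*, *Wdr1*, *Enah* and *Add1*. *Arpc5*, a subunit of the Arp2/3 complex, was at 41.3 and 36.1 FPKM in *Cnot4*-null PD against 2.57 and 2.43 in WT PD. *H2-D1*, a class I histocompatibility antigen, was at 55.2 and 54.8 FPKM (WT LZ), 1.505 and 0.995 (WT PD), 55.3 and 30.9 (*Cnot4*-null LZ) and 18.9 and 47.1 (*Cnot4*-null PD), and *Bst2*, an interferon-induced membrane protein, at 28.8 and 23.8 FPKM (WT LZ), 0.911 and 0.209 (WT PD), 33.7 and 44.5 (*Cnot4*-null LZ) and 27.6 and 39.0 (*Cnot4*-null PD). The *Cnot4*-null PD and LZ values overlapped in both of these genes, and for *H2-D1* replicate 2 was over 2 times replicate 1 in *Cnot4*-null PD.

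Lipid metabolism recurs as well. *Acsl1*, the long-chain fatty acid activating enzyme near the upper limit of f, went from 25.9 and 22.0 FPKM at LZ to 1.29 and 1.34 at PD in WT and from 22.6 and 22.0 to 25.3 and 27.4 in *Cnot4*-null. *Scp2*, a sterol carrier, measured 31.6 and 34.0 FPKM at LZ and 3.02 and 3.004 at PD in WT, against 43.7 and 35.3 at LZ and 31.5 and 27.3 at PD in *Cnot4*-null. *Mvd*, an enzyme of the mevalonate pathway, had WT values of 27.7 and 22.7 FPKM at LZ and 2.39 and 1.055 at PD, and *Cnot4*-null values of 7.80 and 11.5 at LZ and 9.56 and 11.8 at PD. *Acsl1* was higher in both PD than in both LZ libraries of *Cnot4*-null, *Scp2* lower, and *Mvd* overlapped. In *Mvd* the *Cnot4*-null LZ mean was 0.384 of the WT LZ mean, the lowest such ratio among the 136, so its high f was reached against a low LZ level. Over all 136 the median ratio of *Cnot4*-null LZ to WT LZ was 0.917, and the highest, in *Alad*, an enzyme of haem synthesis, was 1.70.

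In several regulators the *Cnot4*-null PD libraries lay far apart. *Rbm38*, an RNA-binding protein that acts on cell cycle transcripts, went from 95.2 and 70.6 FPKM at LZ to 1.63 and 1.42 at PD in WT and from 58.4 and 65.1 to 27.5 and 69.0 in *Cnot4*-null. *Nedd4*, a HECT-type ubiquitin ligase, measured 41.0 and 37.2 FPKM at LZ and 1.31 and 1.55 at PD in WT, against 34.5 and 37.3 at LZ and 18.2 and 43.2 at PD in *Cnot4*-null. *Cd47*, the surface protein that holds off phagocytosis, had WT values of 43.2 and 27.7 FPKM at LZ and 0.749 and 0.274 at PD, and *Cnot4*-null values of 62.4 and 36.0 at LZ and 25.5 and 53.5 at PD. In all 3 the replicate 2 library of *Cnot4*-null PD was over 2 times replicate 1 and alone reached the *Cnot4*-null LZ level. *Eif4ebp1*, the repressor of cap-dependent translation, went from 129.7 and 109 FPKM at LZ to 3.79 and 2.72 at PD in WT and from 106 and 96.0 to 82.1 and 53.0 in *Cnot4*-null. Here replicate 1 was the higher library of *Cnot4*-null PD, by over 1.5 times. *AA465934*, which is 1 of the 2 kept genes without a position, had WT LZ values that lay far apart, at 36.1 and 8.10 FPKM, so that its WT LZ mean passes 20 through replicate 1 alone.

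Single members of the lists that describe germ cell processes were also kept. *Mageb4*, an X-linked gene of the MAGE family, had WT values of 71.7 and 65.6 FPKM at LZ and 3.73 and 1.17 at PD, and *Cnot4*-null values of 90.6 and 87.1 at LZ and 55.4 and 83.0 at PD. Limma called 41.6% of all tested genes higher and 11.5% lower at PD. Of the 41 other genes tested from X-linked germ cell families, it called 30 higher and 0 lower (23 and 1 with quantile normalization, 26 and 0 with the same median), with a median log2 difference of 2.27. Their lower count at an unadjusted p under 0.05 was 0. Among the 45 measured members of these families 15 met the condition on WT with its minimum of 20 FPKM at LZ, of which 9 were cleared in both genotypes, 5 partly kept and 1, *Mageb4*, kept.

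*Cdt1*, which loads the replicative helicase in G1, went from 35.5 and 25.5 FPKM at LZ to 0.967 and 0.531 at PD in WT and from 29.9 and 27.4 to 15.0 and 20.7 in *Cnot4*-null. Its *Cnot4*-null PD values were below both *Cnot4*-null LZ values. For the 28 other genes of replication and G1/S the calls were 14 higher and 2 lower at PD (10 and 5 with quantile normalization, 10 and 13 with the same median), with a median log2 difference of 0.71. The shares of all tested genes were 41.6% higher and 11.5% lower, and nothing is read from the replication counts beside them. All-gene calls were 2855 higher and 4070 lower with quantile normalization, and 3724 and 6376 with the same median. *Dnmt3b*, a de novo DNA methyltransferase, was at 32.1 and 19.8 FPKM (WT LZ), 0.896 and 1.14 (WT PD), 21.3 and 21.2 (*Cnot4*-null LZ) and 15.7 and 21.4 (*Cnot4*-null PD), with overlap of PD and LZ in *Cnot4*-null. The 18 other tested genes of DNA methylation and germline defence gave 7 higher and 7 lower at PD (4 and 6 with quantile normalization, 3 and 11 with the same median), with a median log2 difference of 0.08.

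*Gpi1*, the glycolytic glucose-6-phosphate isomerase, measured 96.0 and 88.6 FPKM at LZ and 7.48 and 6.90 at PD in WT, against 102 and 91.2 at LZ and 63.4 and 61.4 at PD in *Cnot4*-null. The 14 other somatic glycolytic enzymes gave 10 higher and 2 lower at PD (7 and 3 with quantile normalization, 9 and 4 with the same median), with a median log2 difference of 2.09. *Gapdh*, looked up after the values of *Gpi1* were seen, was partly kept with f of 0.539, and its PD values were 9.22 and 8.22 FPKM in WT against 89.3 and 120.1 in *Cnot4*-null. *Eif4g1*, the scaffold of the cap-binding translation initiation complex, was at 30.3 and 19.6 FPKM (WT LZ), 1.80 and 1.88 (WT PD), 25.6 and 28.5 (*Cnot4*-null LZ) and 24.6 and 30.0 (*Cnot4*-null PD), with PD and LZ overlapping in *Cnot4*-null (f 1.01). The 25 other translation factors gave 9 higher and 4 lower at PD (11 and 4 with quantile normalization, 2 and 20 with the same median), with a median log2 difference of 0.18. The counts of this paragraph stand beside 41.6% higher and 11.5% lower of all tested genes, and nothing is read from that of the translation factors. All-gene calls were 2855 higher and 4070 lower with quantile normalization, and 3724 and 6376 with the same median. Beside *Rpl10*, the 65 other cytosolic ribosomal protein genes gave 37 higher and 0 lower at PD (53 and 0 with quantile normalization, 3 and 37 with the same median), with a median log2 difference of 0.71, and 0 were lower at an unadjusted p under 0.05 as deposited.

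The remaining lists held no kept gene, and nothing is read from this, as at most 7 genes of any of them met the condition on WT. Of all tested genes 41.6% were called higher and 11.5% lower at PD. The all-gene counts were 2855 higher and 4070 lower with quantile normalization, and 3724 and 6376 with the same median. List counts near these shares are given as a description. The 19 CCR4-NOT subunits and partners gave 5 higher and 1 lower at PD (1 and 3 with quantile normalization, 1 and 13 with the same median), with a median log2 difference of 0.04, and the 18 decapping, exonuclease and uridylation factors gave 5 higher and 1 lower at PD (2 and 4 with quantile normalization, 1 and 11 with the same median), with a median log2 difference of 0.16. Genes of meiotic recombination and double-strand breaks, 27 in number, gave 13 higher and 3 lower at PD (6 and 7 with quantile normalization, 6 and 13 with the same median), with a median log2 difference of 0.70. The synaptonemal complex, axis and cohesin list of 14 gave 3 higher and 5 lower at PD (3 and 5 with quantile normalization, 2 and 10 with the same median), with a median log2 difference of -0.18. For meiotic entry and retinoic acid, 15 tested genes gave 12 higher and 2 lower at PD (7 and 2 with quantile normalization, 10 and 2 with the same median), with a median log2 difference of 2.19. The 14 mitotic cyclins and kinases gave 4 higher and 3 lower at PD (2 and 5 with quantile normalization, 1 and 10 with the same median), with a median log2 difference of -0.05, and the 20 chaperones 6 higher and 4 lower at PD (6 and 4 with quantile normalization, 6 and 14 with the same median), with a median log2 difference of -0.42. The all-gene median is 0.66 as deposited, -0.11 with quantile normalization and -0.21 with the same median. The lists of meiotic entry, glycolysis and X-linked families lay above it with each scaling and those of CCR4-NOT, decapping, DNA methylation and mitotic genes below it. The median of the ribosomal proteins, close to that of all genes as deposited, was 1.12 with quantile normalization and -0.73 with the same median. Over all 23 lists limma called 0 genes at LZ, where 31 had an unadjusted p under 0.05.

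Just inside the lower limit lay *Dusp9*, *Aifm1* and *Tcf25*, with f of 0.6001, 0.603 and 0.603, and just outside it *1810027O10Rik*, *Insig1* and *Fam60a*, with 0.599, 0.599 and 0.597. *Dusp9*, an X-linked MAP kinase phosphatase, was at 9.57 and 16.5 FPKM in *Cnot4*-null PD and 22.9 and 20.2 in *Cnot4*-null LZ. *Insig1*, a sterol sensor of the endoplasmic reticulum, was at 27.0 and 32.3 FPKM in *Cnot4*-null PD and 51.7 and 45.5 in *Cnot4*-null LZ. For each of these 6 genes the f of the 2 *Cnot4*-null PD libraries lay on either side of 0.6, as with 0.437 and 0.763 in *Dusp9*, so the side of the limit is set by less than the spread between libraries. At the upper end *Acsl1*, *Ftl1* and *Ndufb11* were the last inside, with 1.19, 1.17 and 1.14, and *Cnpy2*, *Slc39a1* and *Cox7a1* the first outside, with 1.24, 1.24 and 1.27. *Acsl1*, which activates long-chain fatty acids, was at 25.3 and 27.4 FPKM in *Cnot4*-null PD and 22.6 and 22.0 in *Cnot4*-null LZ. *Slc39a1*, a zinc transporter, was at 18.4 and 47.4 FPKM in *Cnot4*-null PD and 23.6 and 30.1 in *Cnot4*-null LZ, so its place above the limit comes from *Cnot4*-null PD replicate 2, while f from replicate 1 was 0.666.

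The 2 *Cnot4*-null PD libraries did not place the kept transcripts alike. The median f was 0.60025 from replicate 1 and 0.885 from replicate 2, and 47 of the 136 (34.6%) were within 0.6 to 1.2 in both. Replicate 2 was the higher library for 81.6% of the kept genes. It was so for 74.2% of the partly kept genes, 56.4% of those cleared in both genotypes and 87.0% of those with f over 1.2. The share over all tested genes is not given here, and nothing is read from these shares. The largest differences were in *Ctsf* (f 0.452 and 1.54), *Psap* (0.566 and 1.47), *Mafg* (0.511 and 1.41), *Pprc1* (0.406 and 1.22) and *Rbbp9* (0.374 and 1.15), always with the higher value in replicate 2. Replicate 1 placed all 5 below the range and replicate 2 placed all but *Rbbp9* above it, so only the mean of both libraries puts those 4 inside. The smallest were in *Sys1* (0.629 and 0.627), *9130401M01Rik* (0.682 and 0.674), *Cox8a* (0.958 and 0.968), *Smagp* (0.706 and 0.694) and *Rfk* (0.653 and 0.667). *Psmd10* and *Dgat2*, chosen after their values were seen, went the other way, with f of 0.936 and 1.31 from replicate 1 and 0.282 and 0.676 from replicate 2.

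**Figure D4:**
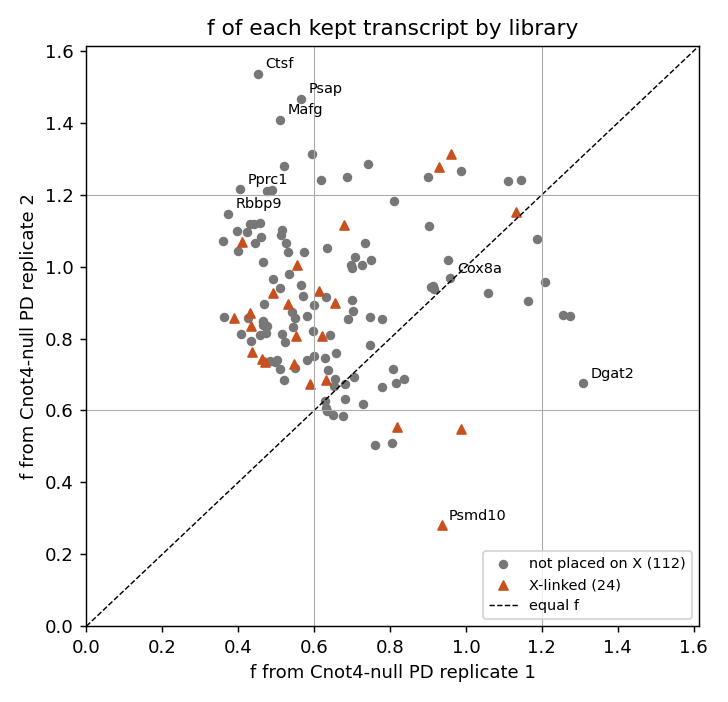
Kept fraction f of each of the 136 transcripts from *Cnot4*-null PD replicate 1 (x axis) and replicate 2 (y axis), with X-linked genes as triangles and grey lines at 0.6 and 1.2. Most points lie above the dashed line of equal f, as 111 of the 136 are higher in replicate 2.

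When the rule was applied to the replicate 1 libraries alone, it selected 91 genes. Their f in the replicate 2 libraries had a median of 0.900, and 56 of them (61.5%) were within the range. Of the 724 other genes that met the condition in WT replicate 1, 23.3% were. Applied to the replicate 2 libraries alone, the rule selected 183 genes. Their f in the replicate 1 libraries had a median of 0.441, and 44 of them (24.04%) were within the range. Of the 508 other genes that met the condition in WT replicate 2, 5.71% were. Both directions selected 37 genes in common, which are 40.7% of the first list and 20.2% of the second. These figures are descriptions of 2 libraries per group and carry no test.

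Of the 134 kept transcripts with a position in the annotation, 24 (17.9%, exact binomial 95% interval 11.8 to 25.5%) are X-linked, against 4.28% of the tested genes with a position and 3.31% of those with a WT LZ mean of at least 20. The interval covers the counting of genes and not the spread between animals. The share was 15.4% in the partly kept genes and 30.9% in those cleared in both genotypes, so X-linked genes were frequent in each of these classes of fallen genes and not in the kept class alone. Of 139 X-linked genes with a WT LZ mean of at least 20, 130 (93.5%) were lower by at least 10-fold in WT PD, against 588 of 4054 autosomal genes (14.5%). Among those that fell, 18.5% of the X-linked and 18.7% of the autosomal genes were kept, while 22.3% and 11.1% were cleared in both genotypes. The kept X-linked genes had a median of 2.06 and 1.18 FPKM in the WT PD libraries and 27.3 and 38.9 in *Cnot4*-null PD, against 52.9 and 49.2 in *Cnot4*-null LZ. Kept X-linked genes include the widely expressed *Rpl10*, *Rbbp7*, *Cox7b*, *Ndufb11*, *Naa10* and *Hsd17b10*, chosen after their values were seen. Cleared in both genotypes were the germ cell genes *Tex13*, *Rhox13*, *Tktl1* and *Fmr1nb* as well as the widely expressed *Ndufa1*, *Prps1* and *Fmr1*, all of these chosen after their values were seen. *Pdk3*, an X-linked kinase of pyruvate dehydrogenase, had WT values of 94.8 and 85.4 FPKM at LZ and 2.57 and 1.57 at PD, and *Cnot4*-null values of 57.2 and 55.3 at LZ and 34.0 and 38.5 at PD, with the *Cnot4*-null PD values between those of the other groups.

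Apart from the X chromosome, no chromosome held more than 12 of the 136 (chromosome 11). Neighbouring pairs within 100000 bases were *Psme1* with *Psme2* (5912 bases apart), *Crip2* with *Crip1* on chromosome 12 (6508 bases), *Otud5* with *Pqbp1* (17893 bases) and *Ndufb11* with *Cdk16* (70335 bases), the last 2 pairs on the X chromosome. *Crip1*, chosen with *Crip2* after their values were seen, encodes a small LIM protein and was at 89.6 and 54.5 FPKM (WT LZ), 6.85 and 1.45 (WT PD), 83.5 and 63.6 (*Cnot4*-null LZ) and 84.9 and 66.9 (*Cnot4*-null PD). *Crip2* was at 55.5 and 60.6 FPKM (WT LZ), 4.46 and 3.23 (WT PD), 46.7 and 45.6 (*Cnot4*-null LZ) and 57.8 and 40.4 (*Cnot4*-null PD). In both genes the *Cnot4*-null values at PD overlapped with those at LZ.

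Promoters were searched for short motifs. RefSeq sequences of GRCm38.p6, 250 bases before to 50 after the start, were matched by symbol for 122 of the 136 genes. The pentamer CCAAT, the core of the site that the factor NF-Y binds, was looked for on both strands (ATTGG on the other). It was found in 19 of 22 promoters of kept X-linked genes (86.4%), 54 of 99 of the other X-linked genes that fell (54.5%), 34 of 98 kept autosomal genes (34.7%) and 164 of 400 other autosomal genes that fell (41.0%). Over all 32851 promoters of the table the share was 37.4%, and over the genes with a WT LZ mean of at least 20 it was 40.8%. It was also frequent in sets beyond the kept genes, in 60.5% of all X-linked genes with that minimum (the kept ones included) and 63.6% of the genes with f over 1.2 (14 of 22). The comparison with all tested genes that had been planned, where the share was 39.2%, is void, since only 79.0% of them have an entry. Of the genes with a WT LZ mean of at least 20, 83.0% have one, which is little more. The division into X-linked and autosomal genes and the use of the WT LZ minimum were chosen after these values were seen. A match is a description of the letters, not of binding. The promoters of *Sod1* and of the X-linked genes *Rpl10*, *Pin4*, *Rbbp7* and *Pdk3* are printed in the direction of transcription, with CCAAT or ATTGG in capitals, to show where the pentamer lies in the most abundant kept gene and in the kept X-linked genes with the highest WT LZ means. *Rbm3* has no entry. Their positions in GRCm38.p6 are chr16:90220512-90220811 (plus strand), chrX:74270566-74270865 (plus), chrX:102119219-102119518 (plus), chrX:162760122-162760421 (plus) and chrX:93832101-93832400 (minus).
Sod1: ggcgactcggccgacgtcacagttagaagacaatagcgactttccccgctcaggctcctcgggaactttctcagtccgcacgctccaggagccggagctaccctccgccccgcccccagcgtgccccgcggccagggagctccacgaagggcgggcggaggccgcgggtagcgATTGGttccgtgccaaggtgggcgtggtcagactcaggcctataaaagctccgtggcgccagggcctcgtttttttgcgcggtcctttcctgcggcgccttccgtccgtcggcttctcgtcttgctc
Rpl10: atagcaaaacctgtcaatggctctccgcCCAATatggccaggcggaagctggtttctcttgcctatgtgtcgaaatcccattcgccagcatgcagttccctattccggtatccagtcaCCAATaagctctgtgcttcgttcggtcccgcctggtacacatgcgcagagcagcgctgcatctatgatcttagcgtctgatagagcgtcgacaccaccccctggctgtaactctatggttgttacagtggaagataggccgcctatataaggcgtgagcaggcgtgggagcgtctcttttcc
Pin4: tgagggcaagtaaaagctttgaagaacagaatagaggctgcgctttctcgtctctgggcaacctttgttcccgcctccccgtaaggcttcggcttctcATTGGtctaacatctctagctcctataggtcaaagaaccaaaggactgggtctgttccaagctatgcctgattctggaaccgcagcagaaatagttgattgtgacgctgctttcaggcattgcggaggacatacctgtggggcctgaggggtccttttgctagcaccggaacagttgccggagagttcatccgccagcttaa
Rbbp7: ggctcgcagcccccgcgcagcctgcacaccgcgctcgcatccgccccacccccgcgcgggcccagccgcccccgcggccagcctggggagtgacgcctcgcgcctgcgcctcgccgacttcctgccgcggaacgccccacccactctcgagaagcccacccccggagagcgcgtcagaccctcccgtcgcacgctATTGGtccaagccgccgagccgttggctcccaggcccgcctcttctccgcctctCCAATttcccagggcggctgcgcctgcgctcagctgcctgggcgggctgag
Pdk3: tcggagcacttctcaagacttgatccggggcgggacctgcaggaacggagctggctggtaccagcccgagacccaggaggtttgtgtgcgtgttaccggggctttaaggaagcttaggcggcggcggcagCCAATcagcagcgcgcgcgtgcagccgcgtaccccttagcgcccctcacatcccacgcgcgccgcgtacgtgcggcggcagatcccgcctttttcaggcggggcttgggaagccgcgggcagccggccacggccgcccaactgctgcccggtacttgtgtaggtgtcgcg

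*Rpl10* and *Rbbp7* each hold the pentamer at 2 places and the other 3 genes at 1. Over all 122 kept promoters the share with CCAAT was 45.1%. The other motifs were searched on both strands too, and matches of different motifs may overlap. The E-box CACGTG, which is also the core of the site of TFEB-type factors, was in 10.7% of their promoters against 12.5% of those of genes with a WT LZ mean of at least 20 and 7.15% of all promoters in the table. TGACGTCA, the full site of CREB-type factors, was in 1.64% against 4.07% and 1.79%, TTCCCGCC, an E2F site, in 6.56% against 5.32% and 2.19%, CNCCTCAG in 10.7% against 10.5% and 7.94%, and the GC box GGGCGG in 72.1% against 67.3% and 35.7%. TGACNNNGC, a core of the antioxidant response element added after the values were seen, was in 17.2% against 16.8% and 12.4%. The median GC content was 62.0% in the kept promoters and 61.3% in the same comparison genes.

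**Figure D5:**
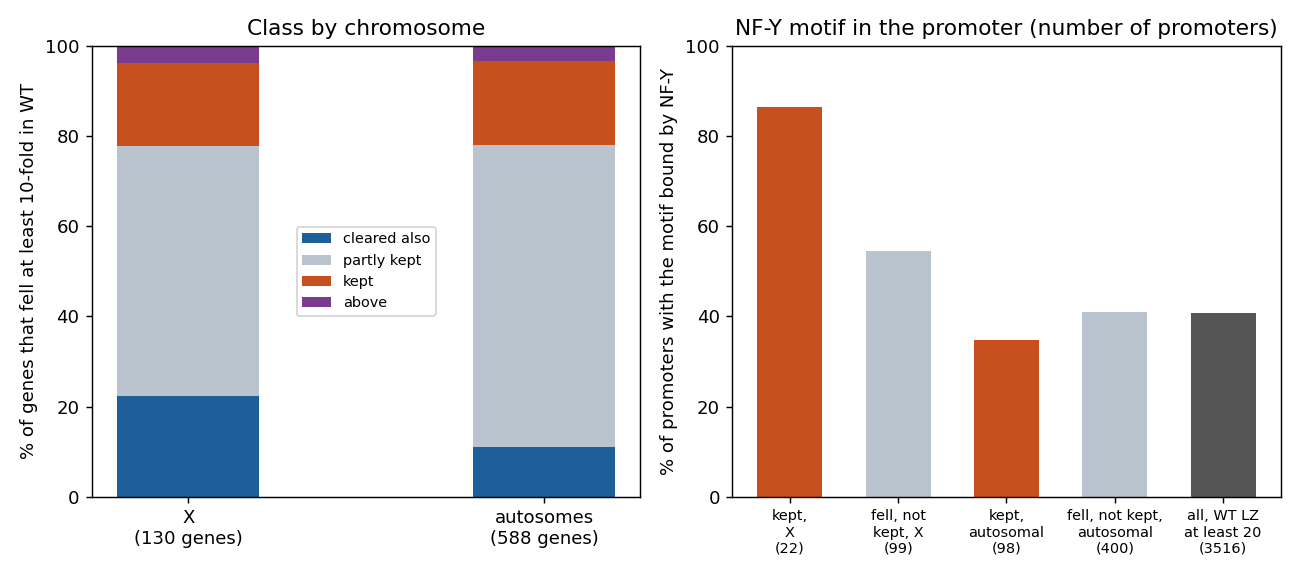
Left, share of each class among X-linked (130) and autosomal (588) genes with a WT LZ mean of at least 20 that were lower by at least 10-fold in WT PD, with kept genes at 18.5 and 18.7%. Right, share of promoters with the motif bound by NF-Y, with 86.4% in kept X-linked genes and 34.7 to 54.5% in the other sets shown.

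The 3′UTRs were taken from the longest coding transcript in GENCODE vM1 on mm9. Those of the kept transcripts had a median of 694 nt, against 915 nt in the partly kept genes. It was 745 nt in those cleared in both genotypes and 766 nt in all genes with a WT LZ mean of at least 20. Lengths are as annotated, and entries of 0 nt, as for *Crebbp* and *Pqbp1*, are counted in these medians. The AU-rich pentamer ATTTA was in 54.5% of the kept 3′UTRs of at least 100 nt, against 71.2%, 78.6% and 67.0% in the same order, and its density was 1.30 per kb against 1.91, 2.62 and 1.97. In the 23 genes with f over 1.2 the median was 489 nt, and ATTTA was in 52.6% of the 19 with at least 100 nt, at 1.63 per kb. The share was thus lower in the kept genes and in those above the range than in the other sets, with no test made. Among the 12 most abundant kept transcripts the 3′UTRs measured 65 nt in *Sod1*, 68 in *Rpl10*, 18 in *Pin4*, 44 in *Psme2*, 79 in *Grcc10* and 147 in *Psme1*, but 676 in *Rbbp7*, 753 in *Marcksl1* and 2252 in *Rbm3*, which holds ATTTA 7 times. Short 3′UTRs were also found among the most abundant genes cleared in both genotypes, with 105 nt in *Rhox13*, 125 in *Fmr1nb* and 133 in *Ndufa1*. GACAGA was in 30.9% of the kept 3′UTRs and 29.2% of the comparison genes, and TGTANATA, the Pumilio site, in 22.0% and 23.6%. An ATTTA with its flanks is shown for *Rbm3* and *Psme2* (kept) and for *Tipin* and *Hells* (cleared in both genotypes), chosen after their values were seen from genes that hold it, with the pentamer in capitals.
Rbm3: ctcagttttagcATTTAaaatgagaactg
Psme2: ggaaaataaatgATTTAtactttatgtat
Tipin: aatacagtgactATTTAaattgtttccta
Hells: aaattcctataaATTTAaatttttcagtt

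*Tipin* and *Hells*, a replication fork protein and a chromatin remodelling helicase, have 3′UTRs of 322 and 3224 nt with 2 and 17 copies of the pentamer. *Tipin* went from 386 and 532 FPKM at LZ to 9.28 and 8.15 at PD in WT and from 395 and 343 to 57.0 and 74.9 in *Cnot4*-null, so its *Cnot4*-null PD values stood above WT PD and far below all LZ values, and f was 0.159.

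Of all genes outside the 136, 5 are named that came closest to the mean profile of the kept transcripts over the 8 libraries, on the log2(FPKM + 1) scale. They were *Ak4* (Pearson r 0.9995), *Pgam1* (0.9985), *Bmp7* (0.998), *Sepx1* (0.9977) and *Zbtb33* (0.9974), given without a p since the profile was chosen for its shape. *Pgam1*, a glycolytic phosphoglycerate mutase, measured 117 and 115 FPKM at LZ and 13.1 and 13.5 at PD in WT, against 106 and 109 at LZ and 80.1 and 106 at PD in *Cnot4*-null, and missed the rule because its WT PD mean was above 1/10 of the WT LZ mean. *Ak4*, *Bmp7*, *Sepx1* and *Zbtb33* were below the minimum of 20 FPKM, and *Ak4* was also lower by less than 10-fold in WT PD. *Bmp7*, a secreted growth factor, was at 11.7 and 9.35 FPKM (WT LZ), 0.0727 and 0.0666 (WT PD), 8.78 and 10.02 (*Cnot4*-null LZ) and 7.22 and 8.69 (*Cnot4*-null PD).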

How the data were processed

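RNA-seq values were taken from the FPKM columns that the authors deposited, 1 per library, with 4 groups of 2 libraries. The submitters' processing notes name TopHat2 2.1.1, Cufflinks 2.2.1 and the mouse build mm9. The files hold FPKM and no counts, so no counting error can be given. The kept fraction was computed from group means.

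Background calls came from limma 3.58.1 in R 4.3.3 on log2(FPKM + 1) over 15899 of 23235 genes whose FPKM exceeded 1 in 1 or more libraries, as 4 group means over 8 libraries (4 residual degrees of freedom), eBayes with trend and Benjamini-Hochberg adjustment, called under 0.05. p-values measure the spread between these libraries only. The script was tested on simulated data. Quantile normalization and giving every library the same median over the genes in the filter were the other scalings. Python 3.11.15, pandas 2.3.3 and scipy 1.17.1 did the rest. Gene positions and 3′UTRs were from GENCODE vM1 on mm9, and promoters from RefSeq (GRCm38.p6), matched by symbol and never converted between builds.

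Genes were named by rule: the 12 members with the highest WT LZ means, members on a list, the 3 nearest to each end of the f range on either side, the X-linked members with the 5 highest WT LZ means, the 5 with the smallest and the 5 with the largest difference of f between the *Cnot4*-null PD libraries, the most abundant gene of each marker list and those listed at 0, up to 2 called genes at each end of the PD difference in each pathway list, *Cnot4*, and the 5 most similar non-members. The members and the 23 lists (10 of cell markers, 13 of pathways) were chosen with earlier results of these data known. Older symbols were matched where the files use them.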

Additional observations from a re-analysis of the deposited data

Results flagged for a closer look

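For 42 genes outside the 136, named from the marker and pathway lists, the difference between *Cnot4*-null and WT itself differed between PD and LZ. The values are the log2 difference at PD minus that at LZ on the log2(FPKM + 1) scale, and each had an adjusted p from 0.000244 (*Crabp1*) to 0.0498 (*Rpl29*) in limma over all 15899 genes, of which 30% passed. What sets them apart is therefore that limma's interaction term passed its threshold, and no explanation was tested. Pathway genes were named where limma called them at an end of the PD difference, which is part of this value. Nothing is read from the number of such genes or from their sizes beside the share of all genes.

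Among markers of other cells it was 9.14 in *Insl3* (Leydig cells), 5.80 in *Acta2* (myoid cells), 6.48 in *Clu* (Sertoli cells), 4.25 in *Cd34* (endothelium) and 5.46 in *Prm1* (spermatids). In meiotic genes it was 2.92 in *2410076I21Rik*, 3.68 in *Tex15*, 2.03 in *Syce2*, 2.56 in *Smc3*, -1.89 in *Hormad1*, -1.88 in *Sycp3* and -1.56 in *Mael*, and in the germline genes 4.05 in *Taf7l*, 4.08 in *Nxf2*, 3.10 in *Tex19.1* and 2.57 in *Dnmt3a*. For retinoic acid it was 5.18 in *Crabp1*, 8.40 in *Aldh1a1* and -1.13 in *Aldh1a2*. Genes of mRNA decay gave -1.49 in *Cnot1*, 4.02 in *Btg2*, 1.86 in *Patl1* and 1.67 in *Dis3*. Genes of replication and division gave 3.67 in *Mcm2*, 3.39 in *Fen1*, -1.37 in *Pcna*, -1.25 in *Gins1*, 1.49 in *Ccna2*, 1.60 in *Mki67* and -1.67 in *Cdk1*. In translation it was 5.18 in *Rpl39*, 5.18 in *Rps4x*, 0.80 in *Rpl29*, 4.42 in *Eif1ax*, 2.35 in *Eif4a1*, -1.18 in *Eif2s1* and -1.16 in *Eif5*, and in glycolysis and chaperones 4.46 in *Eno1*, 3.34 in *Pkm2*, -1.31 in *Pfkp*, 3.48 in *Hspd1* and 4.34 in *Hspe1*. The difference of *Rpl29* at PD turned negative with the same median.

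Some of these genes, with a WT LZ mean of at least 20, fell at least 10-fold in WT without being kept. *Rps4x* and *Pkm2* lay above the range, with f of 4.397 and 1.42, and 16 were partly kept, with f from 0.217 (*Taf7l*) to 0.551 (*Hspe1*).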

How the results depend on the processing

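At PD limma called 8449 genes, 5219 with a mean FPKM of at least 5, and 4057 to 9956 without 1 library (4341 without WT PD replicate 1 and 4057 without replicate 2; a lone library is assumed to vary like the other groups). Of the calls, 6619 were higher and 1830 lower, against 2855 and 4070 with quantile normalization and 3724 and 6376 with the same median. At LZ 15 genes were called, 31 with no filter, 4 with only the libraries compared, and 9 to 25 without 1 library (25 without WT LZ replicate 1, and 9 without either WT PD library). The number of kept transcripts, 136, became 56 with quantile normalization, 21 with the same median, 256 and 47 with a WT LZ minimum of 10 and 50 FPKM, 81 with WT PD at most 1/20 of WT LZ, 220 and 88 with the lower end of f at 0.5 and 0.7, and 47 where f had to be in the range in each *Cnot4*-null PD library. It ranged from 83 to 188 without 1 library, with 83 when *Cnot4*-null PD replicate 2 was left out. The X-linked share of 17.9% was 26.1% with the minimum of 50 FPKM and ranged from 13.8 to 20.7% without 1 library. Summed over the pathway lists, 155 calls were higher and 34 lower at PD, against 80 and 158 with the same median. The cause of these changes was not tested beyond what each setting itself fixes.

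The replicate numbers do not pair the libraries by their labels, and the correlation of same-numbered deviations ran from -0.0651 to 0.194 over the pairs of groups. With the number as a replicate block, 8298 genes were called at PD, 16 at LZ, and 156 higher and 36 lower in the pathway lists. Of the single lists, chaperones called lower went from 4 to 7 with the block. The kept fraction comes from no test and has no block.

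With 2 libraries per group, the side of the f limits on which a gene falls rests on single libraries, *Cnot4*-null PD replicate 2 above all, and on the scaling. Values below 1 FPKM, frequent in WT PD, rest on few reads, and ratios to them are imprecise.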
